A study of Mus musculus with 4 samples.

Results

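Chromatin regions that were called open in exactly 3 of 4 ATAC-seq libraries are described here. ATAC-seq uses a transposase that cuts and tags DNA where chromatin is accessible, so a peak marks an open promoter or regulatory element. Joining all peaks with a shared base, over the 4 libraries, gave 40910 union regions, and 3135 of them held a peak in 3 libraries. Of these, 1028 were called in both d4 libraries and in 1 d2 library, and are termed emerging. Another 2107 were called in both d2 libraries and in 1 d4 library, and are termed fading. The members were chosen by the peak calls themselves, so their numbers and peak strengths are given as a description, without a test.

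The cells were ES-E14TG2a mouse embryonic stem cells (mESCs) of wild-type (WT) genotype in cardiogenic differentiation. The d4 cells had been reaggregated in serum-free medium with Activin A, BMP4 and VEGF, whereas the d2 cells were embryoid bodies grown in the same base medium before these factors were added. Each day had 2 libraries from independent differentiation experiments of a single cell line. The d4 culture was mixed, with a minority of endothelial cells according to the study, so that a weaker peak in a bulk library may come from fewer cells with the region open or from less accessibility per cell, and these cannot be told apart.

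Cells leaving pluripotency close elements bound by POU5F1, SOX2 and OTX2 and open elements bound by GATA, TEAD and ETS factors as mesoderm and endothelium form. CpG-rich promoters are open in most cell types, and CTCF, which folds the genome into loops, keeps many of its sites across differentiation. A region called in 3 of 4 libraries lies between the extremes: gained regions, called in both d4 and no d2 library (4063), lost regions, called in both d2 and no d4 library (5664), and shared regions, called in all 4 (11494). The 4 libraries held 22511 and 21299 peaks at d4 and 26865 and 24544 peaks at d2. Genome-wide background coverage, solved from the peak values, was 0.755 and 0.744 at d4 and 0.568 and 0.483 at d2. Coverage was thus lower at d2, although these libraries held more peaks. Whether fewer reads or shorter fragments lie behind this cannot be told from the peak lists. Of 39 pluripotency genes, 21 and 23 had a promoter peak in d4 replicates 1 and 2, and 29 and 31 in d2 replicates 1 and 2. Of 56 endothelial genes, 32 and 33 had a promoter peak in the d4 replicates, and 35 and 37 in the d2 replicates. Fewer promoter peaks at d4 thus were not particular to pluripotency genes. The promoter of Pou5f1 had a peak in both d2 libraries and in neither d4 library, and that of Sox2 had peaks at both days. The Nanog promoter had a peak in d2 replicate 2 alone.

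The sequences below are those of member regions, the strongest of all or of a gene list, that carried a GATA, AP-1, SOX or POU motif within 100 bp of the summit of their strongest peak. They run along the plus strand of mm10, each from the summit to the nearest copy of the motif named, with up to 20 flanking bases. Capitals mark that motif. If a region held several of these motifs, GATA was named first, then POU, SOX, ETS and AP-1. The Ppp1r12a region also held AP-1, POU and SOX motifs, and the Neurog1 region a SOX motif. GATA factors read AGATAA or TGATAA, AP-1 (the FOS and JUN dimer) TGACTCA or TGAGTCA, SOX factors AACAATG or AACAAAG, and POU factors the octamer ATGCAAAT, on either strand. In all 22746 distal windows of this length, 23.5% held a GATA, 6.56% an AP-1, 10.8% a SOX and 2.48% a POU motif. The emerging sequences lie at chr1:44584912-44584977, chr10:108173297-108173390 in an intron of Ppp1r12a, which encodes a myosin phosphatase subunit, chr4:89428081-89428129 and chr3:47662714-47662815. The fading sequences lie at chr2:168791204-168791288 between genes near Sall4, chr2:52072166-52072278 at the Rif1 promoter, chr13:56252269-56252338 at the Neurog1 promoter and chr13:28959752-28959872 between genes near Sox4.
Emerging, chromosome 1 intron, AP-1: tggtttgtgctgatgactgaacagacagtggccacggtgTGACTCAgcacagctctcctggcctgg
Emerging, Ppp1r12a intron, GATA: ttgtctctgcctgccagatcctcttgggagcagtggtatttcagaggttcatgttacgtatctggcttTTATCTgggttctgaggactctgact
Emerging, chromosome 4 intron, AP-1: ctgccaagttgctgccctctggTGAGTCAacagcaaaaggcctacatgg
Emerging, chromosome 3 intergenic, GATA: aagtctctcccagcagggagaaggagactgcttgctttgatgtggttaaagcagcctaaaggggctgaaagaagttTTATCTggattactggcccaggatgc
Fading, Sall4 intergenic, SOX: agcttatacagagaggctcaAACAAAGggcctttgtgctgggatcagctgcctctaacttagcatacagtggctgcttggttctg
Fading, Rif1 promoter, SOX: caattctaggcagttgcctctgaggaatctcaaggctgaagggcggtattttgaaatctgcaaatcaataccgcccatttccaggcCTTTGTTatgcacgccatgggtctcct
Fading, Neurog1 promoter, POU: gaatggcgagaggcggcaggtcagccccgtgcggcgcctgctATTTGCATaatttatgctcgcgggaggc
Fading, Sox4 intergenic, GATA: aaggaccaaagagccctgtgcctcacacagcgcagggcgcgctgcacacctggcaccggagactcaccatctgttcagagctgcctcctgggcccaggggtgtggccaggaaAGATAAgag

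The emerging sequences came from 4 of the 6 strongest emerging regions, whereas the fading ones were taken from gene lists. The chromosome 1 intron region had fold enrichments over background of 18.9 and 16.0 in the d4 libraries and 7.65 in d2 replicate 1. The Ppp1r12a intron region had 15.2 and 17.7 at d4 and 5.81 in d2 replicate 1. In both, the d4 peaks were more than 2 times the lone d2 peak, and d2 replicate 2 had no call. The region near Sall4, a zinc-finger factor of pluripotent cells, had 6.42 in d4 replicate 2 against 10.2 and 11.5 in the d2 libraries. The promoter of Rif1, a replication-timing protein, had a −log10 q of 8.38 in d4 replicate 2 against 17.0 and 18.4 at d2. Neurog1, a proneural bHLH factor, had 5.62 in d4 replicate 1 against 8.83 and 10.6 at d2. The region near Sox4, a SoxC factor gene, had 5.69 in d4 replicate 2 against 9.11 and 6.09 at d2, where the d2 replicate 2 value was below the lower quartile of fading regions in that library (6.74). In these 4 fading regions the lone d4 peak was below both d2 peaks. Among the strongest members without a printed sequence, an emerging promoter of Tspan6, a tetraspanin gene, had a fold enrichment of 13.8 and 14.2 at d4 and 6.38 in d2 replicate 1. A fading intron region of Bicc1, which encodes an RNA-binding protein, had a −log10 q of 8.21 in d4 replicate 1 against 43.7 and 35.3 at d2. A fading promoter of Capsl had a fold enrichment of 5.16 in d4 replicate 2 against 15.2 and 15.6 at d2. In these members the lone peak was less than 50% of the mean of its pair.

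A further 4 distal members were picked after the motif shares were known, because they were the strongest in each class with a CTCF motif, a 12-letter form given here by name. Capitals again mark the motif. The emerging ones lie at chr5:77460511-77460589 and chr14:104039001-104039069, and the fading ones at chr3:115661206-115661326, between genes with the start of S1pr1 nearest, and at chr8:104234714-104234818 in an intron of Tk2, a mitochondrial thymidine kinase. S1pr1 encodes a sphingosine-1-phosphate receptor of endothelial cells.
Emerging, chromosome 5 intron, CTCF: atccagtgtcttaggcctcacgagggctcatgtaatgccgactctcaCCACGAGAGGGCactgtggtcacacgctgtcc
Emerging, chromosome 14 intergenic, CTCF: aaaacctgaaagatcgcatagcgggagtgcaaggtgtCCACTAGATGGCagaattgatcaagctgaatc
Fading, S1pr1 intergenic, CTCF: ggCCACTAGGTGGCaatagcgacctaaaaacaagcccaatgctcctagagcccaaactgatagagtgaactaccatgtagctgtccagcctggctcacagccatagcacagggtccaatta
Fading, Tk2 intron, CTCF: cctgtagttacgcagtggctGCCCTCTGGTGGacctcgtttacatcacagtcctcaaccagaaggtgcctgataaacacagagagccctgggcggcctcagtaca

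In the emerging ones of these CTCF-motif regions the lone peak was near its pair, and in the fading ones it was below both d2 peaks. The chromosome 14 region had fold enrichments of 9.65 and 10.3 at d4 and 10.1 in d2 replicate 1. The chromosome 5 region had 10.3 and 9.71 at d4 and 9.49 in d2 replicate 2. The region near S1pr1 had 9.59 in d4 replicate 1 and 12.1 and 10.6 at d2. The Tk2 intron region had 7.73 in d4 replicate 1 against 10.9 and 10.6 at d2. The remaining library had no call in each case, although the lone peak of the chromosome 14 region lay between its d4 values and that of the chromosome 5 region was below them by less than 10%.

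Emerging regions made up 2.51% and fading regions 5.15% of all union regions. The lone peak came from d2 replicate 1 in 571 emerging regions (55.5%, 95% Wilson interval 52.5 to 58.6%) and from d2 replicate 2 in 457. It came from d4 replicate 1 in 1109 fading regions (52.6%, 50.5 to 54.8%) and from d4 replicate 2 in 998. Replicate 1 of each day thus supplied somewhat more lone peaks than replicate 2. With the top 15000 peaks of each library, 1212 regions were emerging and 1145 fading, so that fading regions no longer outnumbered emerging ones. The lone peaks made up 4.93% and 4.69% of all peaks in d4 replicates 1 and 2, and 2.13% and 1.86% of those in d2 replicates 1 and 2. Most members held exactly 3 peaks, and 28 emerging (2.72%) and 118 fading regions (5.60%) held 4 to 6, because a library had several peaks in them. Median widths were 334 bp for emerging and 383 bp for fading regions, between those of gained and lost regions (283 and 284 bp) and of shared regions (602 bp).

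**Figure D1:**
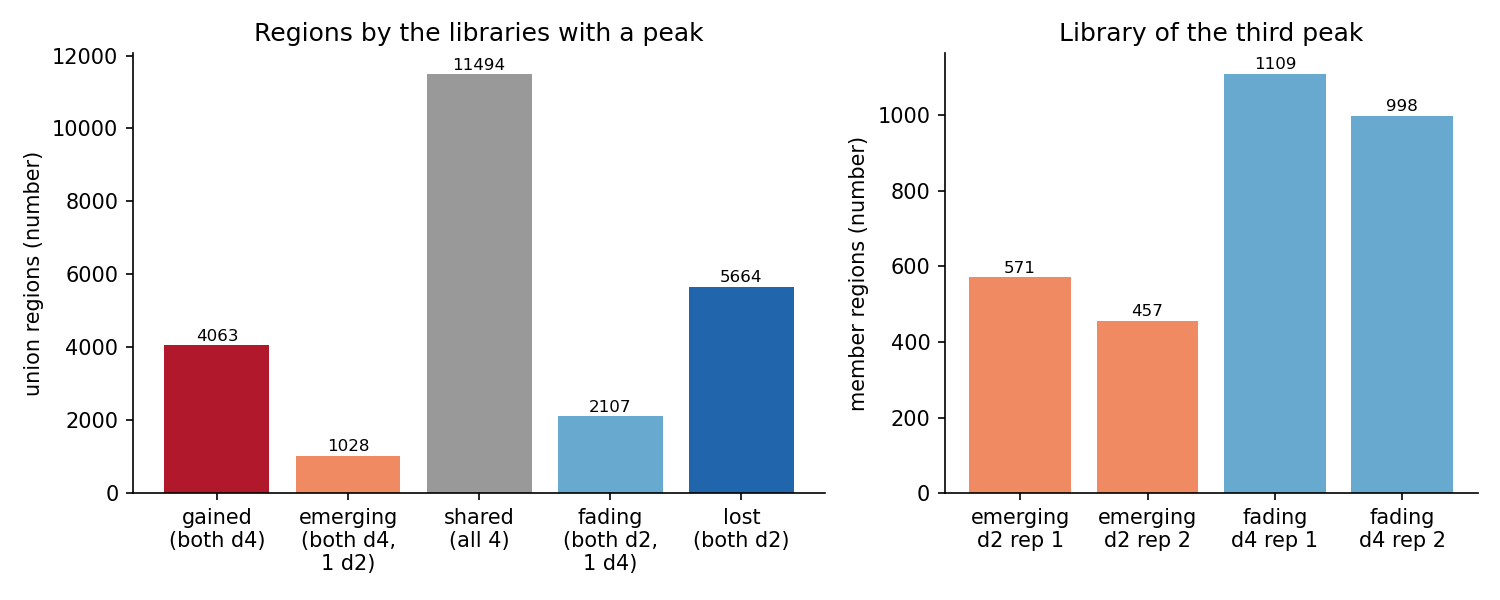
Left, number of union regions (y axis) in gained, emerging, shared, fading and lost classes. Right, number of member regions (y axis) by class and by the library that supplied the lone peak of the other day; fading regions outnumber emerging ones, though not with equal numbers of peaks per library (1212 emerging and 1145 fading), and both libraries of a day supply lone peaks (571 and 457 at d2, 1109 and 998 at d4).

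Where a library lacked a call, a peak was often some distance away. The nearest peak of the library without a call lay within 500 bp of 100 emerging regions (9.73%, 8.06 to 11.7%) and of 145 fading regions (6.88%, 5.88 to 8.04%). Within 5000 bp the counts were 312 (30.4%) and 463 (22.0%), and the median distance was 13.5 kb for emerging and 19.7 kb for fading regions. At the promoter of Mixl1, a homeobox gene of the primitive streak, the nearest peak of d4 replicate 2 was 113 bp away, so that the fading label there rests on a gap of less than the length of a nucleosome. At the promoter of Esrrb, an orphan nuclear receptor of naive cells, the nearest peak of d4 replicate 1 was 179214 bp away.

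Members held weak peaks, which the rule favours, because a library had to lack a call. The median −log10 q (the caller's corrected p-value on a log scale) of the weakest peak was 6.46 in emerging and 6.41 in fading regions, against 8.70 in gained, 7.96 in lost and 12.6 in shared regions. It was under 5 in 224 emerging (21.8%) and 466 fading regions (22.1%), against 9.43% of gained, 12.4% of lost and 4.25% of shared regions. The weakest peak is taken over 3 libraries in members, over the pair in gained and lost, and over all 4 in shared regions. A minimum over more libraries tends to be lower, so the comparison with gained and lost regions is uneven. The weakest emerging peak had a −log10 q of 3.02341 and the weakest fading peak 3.02544, just inside the deposited limit of 3.00. Just outside the rule, shared regions with a barely called peak had 3.00536 at Ddah1, 3.01957 at Ahdc1 and 3.02020 at Arhgap23. At a −log10 q of at least 5, 804 emerging (78.2%) and 1641 fading regions (77.9%) kept 3 called libraries. At 10 or more, 139 (13.5%) and 229 (10.9%) did, while 191 emerging (18.6%) and 589 fading regions (28.0%) kept only the pair of 1 day and would be read as gained or lost. No call survived at 10 in 276 emerging (26.8%) and 466 fading regions (22.1%).

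The lone peak of a fading region was weaker than its pair, and in emerging regions the gap was smaller. In fading regions the median fold enrichment was 6.27 and 6.17 in the lone peaks of d4 replicates 1 and 2, against 7.35 and 8.17 in the d2 replicates. In emerging regions it was 7.22 and 7.06 in the d4 replicates, against 6.69 and 6.97 in the lone peaks of d2 replicates 1 and 2. The ratio of the lone peak to the mean of its pair had a median of 0.815 and 0.809 in fading regions with d4 replicates 1 and 2, where the same ratio in shared regions was 0.936 and 0.928. In emerging regions it was 0.910 with d2 replicate 1 and 0.995 with d2 replicate 2, where shared regions had 1.00 and 1.13. Relative to shared regions, the lone peak was the lower one in both classes. The rule favours this, because it asks that the other library of that day had no call. The lone peak was the weakest of the 3 by −log10 q in 1367 fading regions (64.9%) and in 499 emerging regions (48.5%).

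Scaling by background coverage leaves out the constant that the caller adds to pileup and background in fold enrichment. On this scale the order of the days in emerging regions changed. When the pileup at the summit was divided by the library's genome-wide background coverage, emerging regions had medians of 21.2 and 20.2 in the d4 replicates, and 22.9 and 29.0 in the lone peaks of d2 replicates 1 and 2. The lone d2 peak exceeded the d4 mean in 676 of 1028 emerging regions (65.8%) on this scale. The lone d4 peak exceeded the d2 mean in 76 of 2107 fading regions (3.61%). Shared regions also were higher in d2 on this scale, with medians of 33.1 and 32.3 at d4 and 38.7 and 55.9 at d2. An emerging region thus is one called more often at d4, and the scaled pileup of its lone d2 peak was usually not lower. The d2 peak exceeded the d4 mean in 55.0% (d2 replicate 1) and 79.2% (d2 replicate 2) of emerging regions. In shared regions these shares were 68.2% and 91.1%. Relative to shared regions, the lone d2 peak thus was again the lower, which the rule favours.

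**Figure D2:**
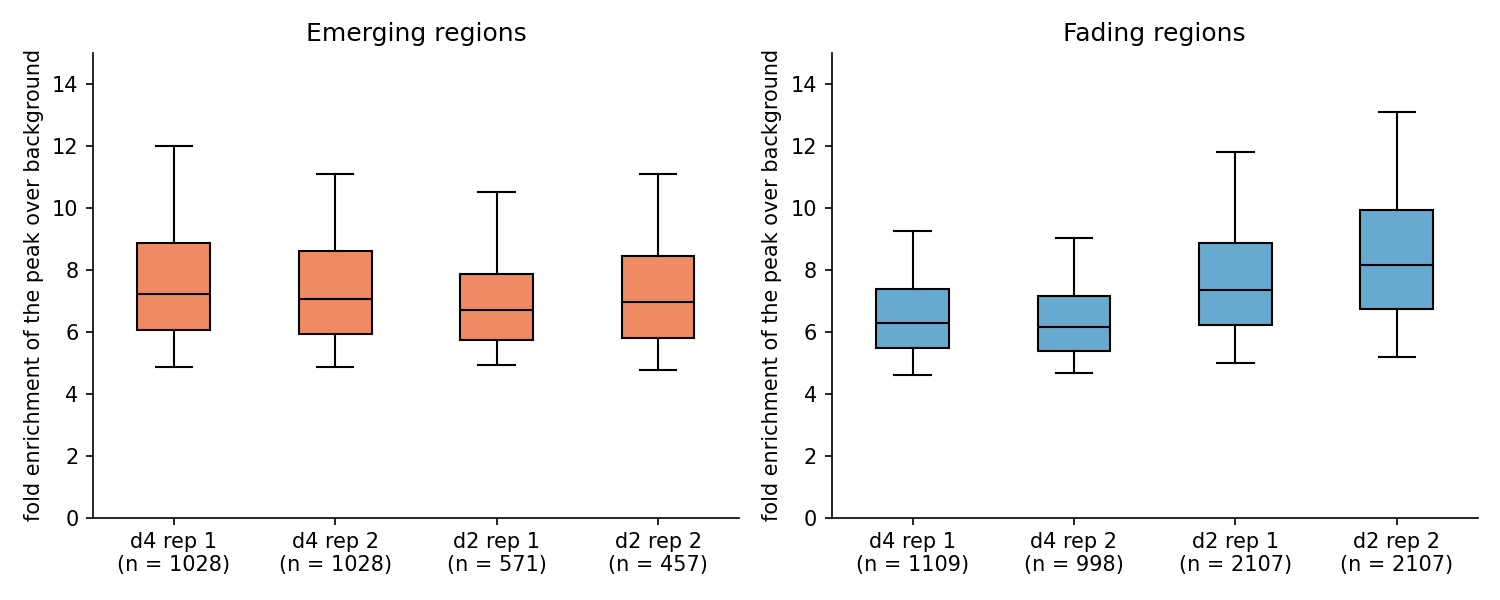
Fold enrichment of the peak over background (y axis) in each library for emerging (left) and fading regions (right). Boxes show quartiles and medians, whiskers the 5th to 95th percentiles, and n is the number of regions with a peak in that library; the lone d4 peaks of fading regions are lowest, with medians of 6.27 and 6.17.

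Members with the strongest lone peaks were promoters. On the scaled pileup, the emerging promoter of Sox12, a SoxC transcription factor gene, had 45.0 and 30.9 in the d4 replicates against 78.6 in d2 replicate 2, with no call in d2 replicate 1 and its nearest peak 446 bp away. The emerging promoter of Fbxl20, an F-box gene, had 21.2 and 32.3 at d4 against 70.4 in d2 replicate 2. In both, the d2 replicate with a call was higher than both d4 replicates. The fading promoter of Tob1, an antiproliferative gene, had 41.0 in d4 replicate 1 against 44.0 and 60.0 at d2.

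Promoters, within 1000 bp of a transcript start, made up 484 of 1028 emerging regions (47.1%, 44.0 to 50.1%) and 1280 of 2107 fading regions (60.7%, 58.6 to 62.8%). Both shares were above those of gained (12.2%) and lost regions (31.7%) and below that of shared regions (85.8%). Of all 40910 union regions, 18164 were promoters, a share near that of emerging regions. By Fisher's exact test over regions, two-sided and adjusted over 3 comparisons, the promoter share was lower in emerging than in fading regions (odds ratio 0.575, 95% interval 0.495 to 0.668, adjusted p = 5.15e-13). It was higher in emerging than in gained regions (odds ratio 6.38, 5.47 to 7.45, exact adjusted p = 5.42e-121) and in fading than in lost regions (odds ratio 3.34, 3.01 to 3.71, exact adjusted p = 2.48e-118). Regions are not replicates of a day, and these tests compare lists made from the same 4 libraries.

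The difference between emerging and fading regions depended on d2 replicate 1 and on the peak and overlap rules. Emerging regions whose lone peak came from d2 replicate 1 were promoters in 217 of 571 cases (38.0%, 34.1 to 42.1%), and those with d2 replicate 2 in 267 of 457 (58.4%, 53.9 to 62.9%). Fading regions had 58.3% with d4 replicate 1 and 63.5% with d4 replicate 2. Without the members of d2 replicate 1 the odds ratio was 0.908 (Fisher's exact p = 0.370). With the top 15000 peaks of each library it was 0.959 (exact p = 0.648). With a reciprocal overlap of at least 50% in place of 1 bp it turned to 1.25 (exact p = 0.00308). No direction is therefore given for the promoter share between the classes.

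Outside promoters, emerging regions were intergenic in 303 cases (29.5%) and intronic in 195 (19.0%), and fading regions in 399 (18.9%) and 315 (15.0%). Exons and UTRs held under 6% of either class. The 544 distal emerging regions lay a median of 11.9 kb and the 827 distal fading regions 9.65 kb from the nearest start. The median GC share within 100 bp of the summit of distal regions was 50.7% in gained, 53.7% in emerging, 57.2% in shared, 56.2% in fading and 53.2% in lost regions. In promoters the median number of CpG dinucleotides in this window was 3 in gained, 14 in emerging, 17 in shared, 16 in fading and 12 in lost regions. On these measures emerging regions lay between gained and shared regions, and fading regions between shared and lost ones. The median GC share of fading promoters, 67.2%, however, was above those of shared (66.2%) and lost promoters (64.2%). Emerging promoters were nearer in CpG number to shared than to gained promoters.

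**Figure D3:**
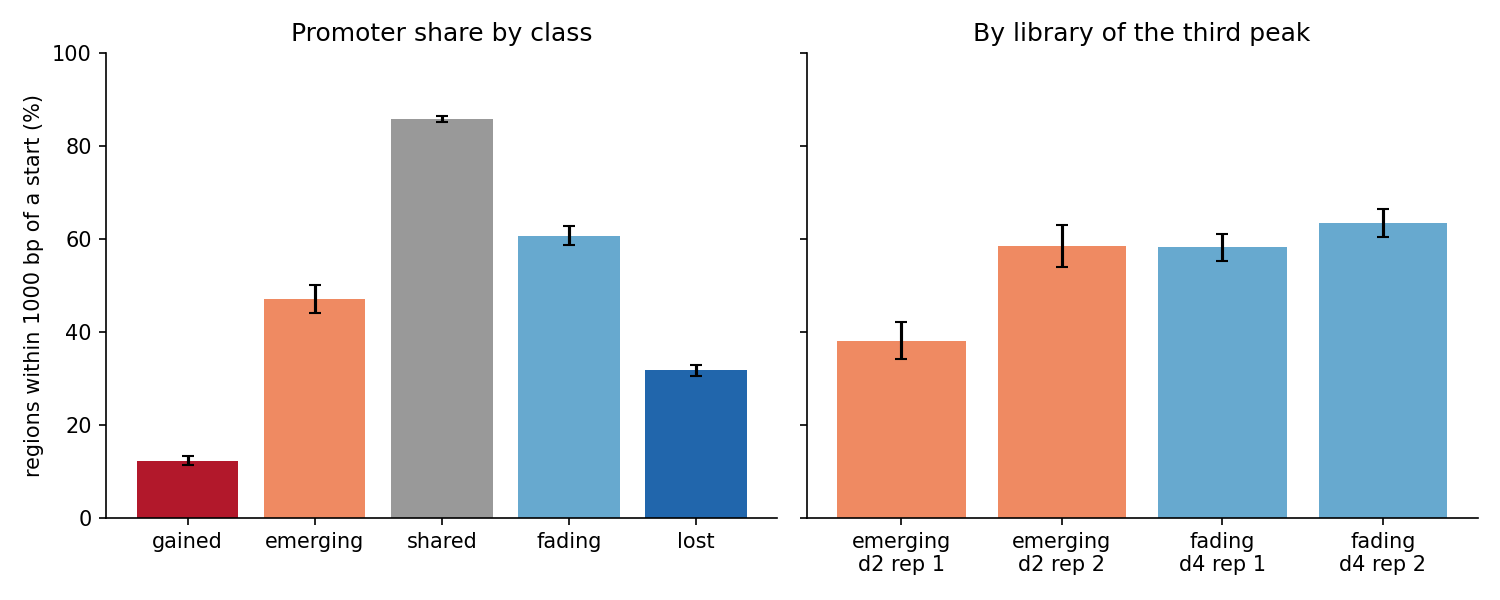
Share of regions within 1000 bp of a transcript start (y axis, %) by class (left) and, for emerging and fading regions, by the library of the lone peak (right). Bars give the share and error bars the 95% Wilson interval; emerging regions with a lone peak in d2 replicate 1 have 38.0%, the lowest of the 4 groups at right.

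The GATA motif was more frequent in distal emerging than in distal fading regions. In both it was rarer than in all 22746 distal union regions (23.5%). It occurred in 107 of 544 distal emerging regions (19.7%, 16.5 to 23.2%) and in 71 of 827 distal fading regions (8.59%, 6.86 to 10.7%). The odds ratio was 2.61 (1.89 to 3.60, adjusted p = 1.04e-07 by Fisher's exact test, adjusted over 27 motifs), and it stayed above 1 with p under the threshold in all 14 alternatives. The 7-letter form AGATAAG was in 6.43% of emerging and 1.81% of fading regions (odds ratio 3.72, exact adjusted p = 1.63e-04). For this form the call was lost at a −log10 q of at least 10 (odds ratio 4.26, exact adjusted p = 0.0973) and with the top 15000 peaks (odds ratio 3.55, exact adjusted p = 0.265). Emerging regions still held fewer GATA motifs than gained regions, with 53.4% (odds ratio 0.214, 0.171 to 0.267, exact adjusted p = 4.05e-50). Fading regions had a share near that of lost regions, 9.64% (odds ratio 0.881, 0.675 to 1.15, exact adjusted p = 0.710). Whichever library gave the lone peak, the intervals overlapped: the share was 20.3% (16.5 to 24.8%) with d2 replicate 1 and 18.4% (13.6 to 24.5%) with d2 replicate 2 in emerging regions, and 9.29% (6.97 to 12.3%) with d4 replicate 1 and 7.69% (5.38 to 10.9%) with d4 replicate 2 in fading regions. The GATA motif was also more frequent in emerging than in fading promoters, with 34 of 484 (7.02%) and 35 of 1280 (2.73%, odds ratio 2.69, exact adjusted p = 0.00237). It was the only motif of 27 to pass in promoters between these classes.

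Other motifs of mesoderm and endothelium were less frequent in emerging than in gained distal regions. TEAD motifs (CATTCCA or CATTCCT, read by the effectors of Hippo signalling) were in 12.1% of emerging and 19.7% of gained regions (odds ratio 0.563, exact adjusted p = 6.80e-05). RUNX motifs (AACCACA) were in 4.41% of emerging regions (odds ratio 0.470, exact adjusted p = 6.54e-04), and ETS motifs of the ERG and FLI1 type (ACAGGAAG) in 4.23% against 7.21% of gained regions (odds ratio 0.568, exact adjusted p = 0.0276). In all, 7 motifs were lower in emerging than in gained regions, and 3 were higher, namely SP, ZIC and CTCF. AP-1 was in 7.35% of emerging and 9.98% of gained regions and did not pass (odds ratio 0.716, 0.509 to 1.01, exact adjusted p = 0.109). Over all distal union regions the shares were 11.5% for TEAD, 5.45% for RUNX, 4.30% for this ETS type and 6.56% for AP-1. Emerging regions lay near these, above them for TEAD and AP-1 and below for RUNX and ETS.

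Some motifs of pluripotent cells, though not all, were less frequent in fading than in lost distal regions. The POU octamer, read by POU5F1, was in 17 of 827 fading regions (2.06%) and in 5.37% of lost regions (odds ratio 0.370, 0.224 to 0.610, exact adjusted p = 1.86e-04). The OTX2 and GSC motif (CTAATCC or TTAATCC) was in 5.68% of fading and 8.45% of lost regions (odds ratio 0.653, exact adjusted p = 0.0381), and the ZIC motif (CCTGCTG) in 19.0% and 24.0% (odds ratio 0.741, exact adjusted p = 0.0121). The SOX motif was in 11.7% of fading and 14.3% of lost regions and did not pass (odds ratio 0.799, 0.635 to 1.01, exact adjusted p = 0.199). The KLF motif (GGGTGTGG) went the other way, with 3.99% of fading and 2.40% of lost regions. It did not pass (odds ratio 1.69, 1.13 to 2.53, exact adjusted p = 0.0764). Nor did the ESRRB and NR5A2 motif (0.967% and 1.58%) or the POU5F1 and SOX2 composite (0.121% and 0.542%). CREB and ATF motifs (TGACGTCA) were higher in fading regions, with 8 of 827 (0.967%) and 0.181% (odds ratio 5.39, 1.95 to 14.9, exact adjusted p = 0.0121). Over all distal union regions the shares were 2.48% for the POU octamer, 5.34% for OTX2 and GSC, 17.9% for ZIC and 10.8% for SOX. Fading regions lay near these, below them for the POU octamer and above for the others.

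The CTCF motif was more frequent in each member class than in the class called on 1 day alone. It was in 47 of 544 distal emerging regions (8.64%, 6.56 to 11.3%), against 0.981% of gained regions (odds ratio 9.54, 6.10 to 14.9, exact adjusted p = 2.42e-20). It was in 75 of 827 distal fading regions (9.07%, 7.30 to 11.2%), against 2.53% of lost regions (odds ratio 3.84, 2.81 to 5.24, exact adjusted p = 1.94e-14). The difference between emerging and fading regions did not pass (odds ratio 0.948, 0.647 to 1.39, exact adjusted p = 0.994). Shared distal regions had 5.71%, and regions called in 1 library of each day 13.1%, more than either member class, so the motif is not particular to the members. The motif lay a median of 34.5 bp from the summit in emerging and 33.5 bp in fading regions. Each of the 4 patterns of calls showed it, from 7.89% (4.84 to 12.6%) in emerging regions with d2 replicate 2 to 9.07% in both groups of fading regions and 9.04% in emerging regions with d2 replicate 1. With the GC share and the strongest −log10 p of the region as covariates in a logistic model, an alternative added after seeing the data, the odds ratio was 14.4 (8.93 to 23.2) for emerging against gained and 4.32 (3.13 to 5.96) for fading against lost regions. In promoters the motif was rare, with 1.45% of emerging and 0.859% of fading regions.

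**Figure D4:**
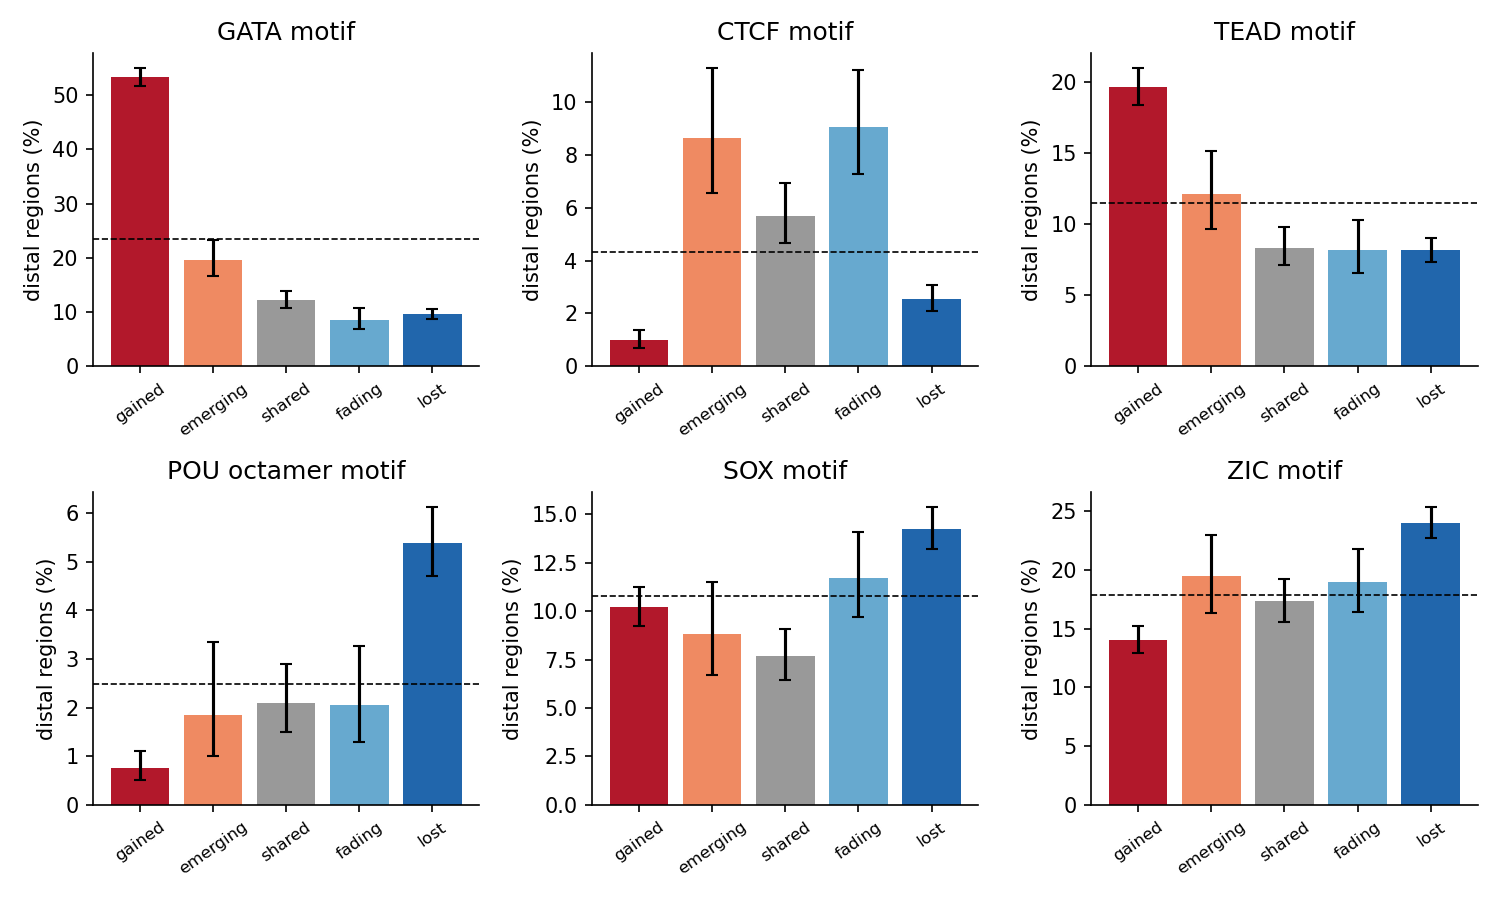
Share of distal regions (y axis, %) with 6 motifs within 100 bp of the summit, by class from gained to lost. Error bars are 95% Wilson intervals and the dashed line is the share over all distal union regions; GATA falls stepwise from gained through emerging, while CTCF is highest in emerging (8.64%) and fading regions (9.07%).

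Each region was paired with the closest transcript start, without evidence that it acts on that gene. Of 22869 genes with a region, 996 had an emerging region (4.36%) and 1986 a fading region (8.68%), and 87 had both. Among the 14105 protein-coding ones the shares were 4.75% and 10.7%. Counts of genes in the lists below are read against these values, and counts of regions against 2.55% emerging and 5.92% fading of all regions near protein-coding genes. Genes with many regions have more chances to hold a member, and most listed genes have several. When regions were assigned to protein-coding genes only, the shares over all such genes were 6.38% emerging and 12.7% fading. The gene values below are fold enrichments. On the scaled pileup d2 was higher in most regions, as above. An order between days on fold enrichment thus need not hold on that scale.

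Pluripotency genes often held fading regions. Of 37 such genes with a region, 11 had a fading region (29.7%) and 3 an emerging region (8.11%), and 11 of their 83 regions were fading (13.3%). With assignment to protein-coding genes only, 11 of 38 genes had a fading region (28.9%), but these were 11 of 162 regions (6.79%), near the 5.15% of all regions. Klf4, Esrrb and Sox2 are named here after their values were seen. The fading region of Klf4, a naive-state zinc-finger factor, had 6.49 in d4 replicate 2 against 8.10 and 5.90 in the d2 replicates. That of Esrrb had 7.65 in d4 replicate 2 against 7.08 and 8.02 at d2. In both genes the d4 value lay between the d2 values. The promoter region of Sox2 had 6.35 in d4 replicate 1 against 6.10 and 6.98 at d2, and the days overlapped. The emerging promoter of Gdf3, a TGF-beta family ligand, had 8.05 and 10.3 at d4 against 5.42 in d2 replicate 2.

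Endothelial genes held members of both classes. Of 51 with a region, 12 genes had a fading one (23.5%) and 3 an emerging one (5.88%), and 12 of their 142 regions were fading (8.45%) and 3 emerging (2.11%). With assignment to protein-coding genes only, 15 of 52 genes had a fading (28.8%) and 8 an emerging region (15.4%), so that the ratio of fading to emerging fell to 1.88, near the 1.98 of all genes, against 4.00 before. Fading promoters included Cd34, which encodes a sialomucin of vascular and blood progenitors, with 5.27 in d4 replicate 1 against 12.2 and 12.4 at d2. The d4 peak was below either d2 peak by more than a factor of 2, and d4 replicate 2 had no call. An exon region of Plvap, a gene of endothelial diaphragms, had 7.49 in d4 replicate 1 against 8.83 and 11.4 at d2. Flt1 and Egfl7 were named after their values were seen. The promoter of Flt1, a VEGF receptor gene, had 5.59 in d4 replicate 1 against 5.76 and 9.21 at d2. That of Egfl7, an endothelial secreted factor, had 6.19 in d4 replicate 1 against 4.57 and 9.34 at d2. The lone d4 peak was below both d2 peaks at Plvap and Flt1, and between them at Egfl7. The 5' UTR region of Tal1, a bHLH factor of blood and endothelial progenitors, had 5.35 in d4 replicate 1 against 6.28 and 6.25 at d2. The emerging promoter of Arhgap31 had 7.84 and 7.25 at d4 against 5.23 in d2 replicate 2. That of the semaphorin receptor gene Plxnd1 had 6.76 and 4.90 at d4 against 6.17 in d2 replicate 1, so that its d4 replicates lay on both sides of the d2 value. An emerging exon region of Efnb2, an arterial ephrin gene, had 4.23 and 4.28 at d4 against 3.83 in d2 replicate 1.

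Early mesoderm genes held members of both classes, all of them promoters. Of 22 such genes with a region, 5 had a fading region (22.7%) and 2 an emerging one (9.09%), against 10.7% and 4.75% of protein-coding genes. With assignment to protein-coding genes only, 6 of 23 had a fading (26.1%) and 3 an emerging region (13.0%), against 12.7% and 6.38%. Counted by regions, the shares were then 5.94% fading and 2.97% emerging, near the 5.15% and 2.51% of all regions. These counts are small, and an excess was not tested. The promoter of T (Brachyury), which drives mesoderm formation and was named after its values were seen, had 4.63 in d4 replicate 2 against 4.44 and 7.11 at d2. That of Eomes, a T-box gene of the primitive streak, had 5.09 in d4 replicate 2 against 5.32 and 10.1 at d2. That of Gsc, an organizer homeobox gene, had 3.99 in d4 replicate 2 against 4.79 and 5.11 at d2. Mixl1 had 6.82 in d4 replicate 1 against 7.94 and 6.23 at d2. The d4 peak was below both d2 peaks at Eomes and Gsc, and between them at T and Mixl1. The emerging promoters were those of Hand1, a bHLH factor of lateral mesoderm, with 5.81 and 7.20 at d4 against 5.15 in d2 replicate 1, and of the chemokine receptor gene Cxcr4, with 5.99 and 6.83 at d4 against 5.50 in d2 replicate 1.

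Of 26 cardiac genes with a region, 4 had an emerging region (15.4%) and 4 a fading one (15.4%). Counted by regions, the shares were 4.40% emerging and 6.59% fading, against 2.55% and 5.92% of regions near protein-coding genes. With assignment to protein-coding genes only, 8 of 30 had an emerging (26.7%) and 5 a fading region (16.7%). By regions these were 4.52% and 3.52%, against 2.51% and 5.15% of all regions. The emerging promoter of Foxc1, a forkhead gene of the cardiovascular lineage, had 7.66 and 8.81 at d4 against 4.52 in d2 replicate 2. That of Gata4, which encodes a cardiac and endodermal GATA factor, had 6.97 and 6.82 at d4 against 7.01 in d2 replicate 2. On fold enrichment both d4 peaks of Foxc1 were above the d2 peak, but on the scaled pileup the d4 values of 27.8 and 34.9 lay on both sides of 31.0 at d2. At Gata4 the fold enrichments were alike, and the scaled pileup was 26.5 and 28.2 at d4 against 37.3 at d2, the highest. A region in an intron near Foxc2 had 6.25 and 6.91 at d4 against 5.53 in d2 replicate 1. Of the fading ones, the promoter of Nppb, a natriuretic peptide gene, had 6.06 in d4 replicate 1 against 8.01 and 5.42 at d2. A region near a start of Mef2c, a MADS-box factor gene of heart and vessels, had 5.88 in d4 replicate 2 against 6.88 and 6.77 at d2, and 1 of 3 fading regions at Meis2, a homeobox gene, the one whose lower d2 fold enrichment was highest, had 5.42 in d4 replicate 2 against 6.54 and 7.91 at d2. In both the lone d4 peak was below both d2 peaks, and at Nppb it lay between them. Another Meis2 region, in an intron, had 8.03 in d4 replicate 1, above the 4.87 and 6.15 at d2, though on the scaled pileup its 19.9 at d4 lay between 14.1 and 20.7 at d2.

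**Figure D5:**
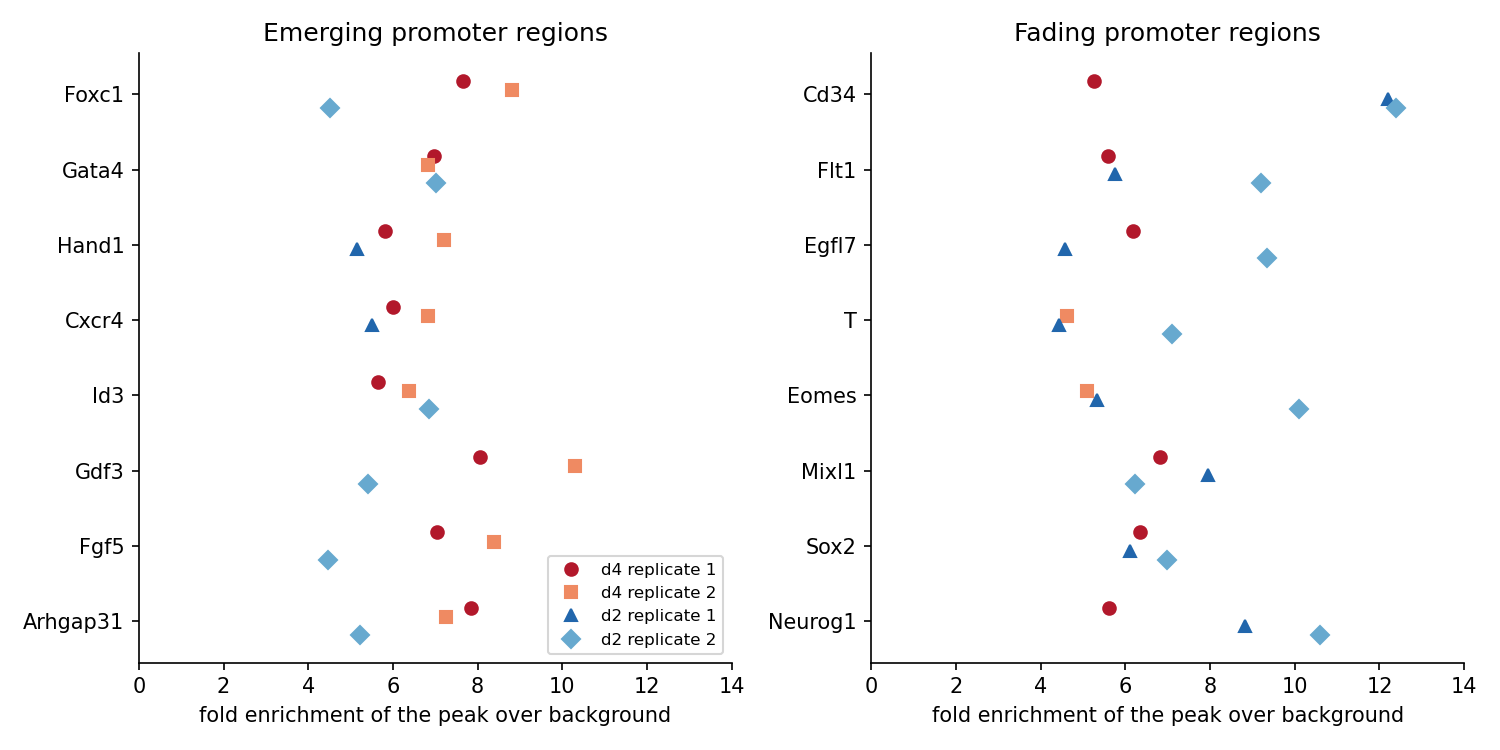
Fold enrichment of the peak over background (x axis) in each library with a call, for 8 emerging (left) and 8 fading promoter regions (right) of listed genes, chosen as examples after their values were seen. A library without a call has no point; on this scale Foxc1 shows both d4 points above its d2 point (not on the scaled pileup), and Cd34 both d2 points above its d4 point.

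Signalling genes were members at both ends. Of 42 genes of VEGF, Notch, BMP and Nodal signalling, 4 had an emerging region (9.52%) and 7 a fading one (16.7%). Counted by regions, the shares were 3.15% emerging and 5.51% fading, near the 2.55% and 5.92% of regions near protein-coding genes. With assignment to protein-coding genes only, 8 of 43 genes had an emerging (18.6%) and 11 a fading region (25.6%), against 6.38% and 12.7%. The emerging region near Lefty2, a Nodal antagonist, had 9.15 and 7.85 at d4 against 5.15 in d2 replicate 2, and carried a composite POU5F1 and SOX2 motif. The emerging promoter of Id3, an inhibitor of bHLH factors induced by BMP, had 5.64 and 6.37 at d4 against 6.84 in d2 replicate 2. The fading promoter of Hes1, a Notch target gene, had 5.10 in d4 replicate 2 against 8.50 and 6.80 at d2, and that of Id2 had 7.03 in d4 replicate 1 against 8.20 and 11.8 at d2. An intron region of Acvr1, a BMP type I receptor gene, had 5.30 in d4 replicate 2 against 8.45 and 8.52 at d2. At Acvr1, Hes1 and Id2 the lone d4 peak was below both d2 peaks.

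Of 27 neural genes with a region, 7 had a fading region (25.9%) and 2 an emerging one (7.41%), against 10.7% and 4.75% of all protein-coding genes. Of 15 trophoblast genes, 6 had a fading region (40.0%) and 1 an emerging one. With assignment to protein-coding genes only, 7 of 16 had a fading (43.8%) and 3 an emerging region (18.8%). Counted by regions with the closest start of any gene, 8.79% of neural and 21.2% of trophoblast regions were fading, and 2.20% and 3.03% emerging. With protein-coding genes only, 8.20% and 13.6% were fading. A distal region near Tfap2c had 6.48 in d4 replicate 2 against 14.2 and 9.11 at d2. The lone d4 peak there was below both d2 peaks. Endoderm genes had 3 emerging and 4 fading of 26, haematopoietic genes 2 and 3 of 19, mesenchymal genes 2 and 4 of 24, and primed pluripotency genes 3 and 4 of 21. Of 27 ubiquitously expressed genes, 0 had an emerging and 4 a fading region (14.8%), so a fading region was not restricted to genes of development. The 23 TEAD and Hippo genes had 0 emerging and 2 fading regions, at Yap1 and Wwc1, and the GATA, ETS and AP-1 factor genes had 2 and 3 of 33.

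The study's own endothelial marker lists, from embryo single cells, had region shares close to the background and mostly higher gene shares. Of 597 regions near markers of Tbx1Cre cluster 6, 12 were emerging (2.01%) and 36 fading (6.03%). Of 2620 near markers of Mesp1Cre cluster 2, 77 were emerging (2.94%) and 166 fading (6.34%), and of 3024 near those of Mesp1Cre cluster 16, 88 (2.91%) and 174 (5.75%). None of these shares differed from the protein-coding background of 2.55% and 5.92% by as much as 1 percentage point, and they were not tested. Counted by genes, 4.82%, 6.59% and 6.90% of the genes on the Tbx1Cre cluster 6, Mesp1Cre cluster 2 and Mesp1Cre cluster 16 lists had an emerging region, against 4.75% of protein-coding genes, and 15.8%, 14.9% and 13.4% a fading one, against 10.7%. The listed genes also had more regions each (597 for 228 genes of Tbx1Cre cluster 6, against 27365 for 14105 protein-coding genes).

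Members seldom clustered at a gene. Of the genes with an emerging region, 966 had 1, 28 had 2 and 2 had 3. Of those with a fading region, 1879 had 1, 94 had 2 and 13 had 3 or more. The 3 emerging regions of Tiam1, a Rac activator, lay at 2 promoters and in an intron, with fold enrichments of 4.50 to 7.31 at d4 and 6.12 to 7.02 at d2. Pde4d, a cAMP phosphodiesterase gene, also had 3 emerging regions, beside 2 fading, 3 gained and 5 lost ones. Iqsec1, an ARF exchange factor gene, had 4 fading regions, with 4.38 to 8.91 in the lone d4 peaks and 5.51 to 11.2 at d2. Sdc2, which encodes a heparan sulfate proteoglycan, had 2 emerging regions, and its promoter had 18.2 and 13.2 at d4 against 11.5 in d2 replicate 2. Both d4 values of this promoter were above the d2 value, but on the scaled pileup, with 41.0 and 29.6 at d4 against 33.1, they lay on both sides of it. A shared region lay within 5000 bp of 22.9% of emerging and 14.8% of fading promoters, and of 8.09% of emerging and 7.74% of fading distal regions.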

How the data were processed

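ATAC-seq was done on 2 d4 and 2 d2 libraries of differentiating mESCs. By the submitters' processing notes and the study's methods, the authors ran FastQC, cutadapt, Bowtie2 on mm10, removal of mitochondrial, duplicate and multiply mapped reads and of blacklisted regions, and MACS2 on each library alone, with no control. In the deposited peak lists, fold enrichment is a ratio of pileup to local background at the summit, with the same constant added to both. It is therefore smaller than the plain ratio. The deposited −log10 columns hold Poisson p-values and, corrected for multiple testing by the caller, q-values. The deposited score, 10 times −log10 q, was not used. Pileup and background were solved from fold and −log10 p, and came out whole in 100% of peaks (to 0.001 in −log10 p). They give relative coverage only, so intervals cover counting error of regions.

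Annotation came from GENCODE release M 21 (GRCm38, identical to mm10). Distal means more than 1000 bp from any transcript start. Fisher's exact tests and Wilson and Wald intervals were made with scipy 1.17.1 and logistic models with statsmodels 0.14.6, adjusted by Benjamini and Hochberg at 0.05. The counting and tests were checked on simulated data. Named genes were the 6 strongest regions of each class, up to 3 per class of each of 17 gene lists, up to 5 genes per class with most regions and the 3 strongest lone peaks per class; other genes named, further list members included, were chosen after their values were seen. The members and lists were chosen with earlier results of these data known. Alternatives changed overlap, peak threshold, window, promoter definition, gene assignment and the libraries used.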

Additional observations from a re-analysis of the deposited data

How the results depend on the processing

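The number of emerging regions was 943 to 1504 in 5 other definitions of regions and peaks, within 1.5 times of 1028. The number of fading regions was 1145 with the top 15000 peaks of each library, where 1212 were emerging and the order of the classes turned, and 1277 at a −log10 q of at least 10, against 2107, and 1842 to 2045 otherwise. The odds ratio of promoters in emerging against fading regions turned to 1.25 when peaks had to share 50% of their length and was 0.959 with the top 15000 peaks, and 0.396 to 0.908 when members of 1 library were left out, lost without d2 replicate 1; the cause was not tested. The GATA odds ratio was 1.90 to 3.91, and 2.39 to 2.94 with members of 1 library left out. Its 7-letter form did not pass at a −log10 q of at least 10 (4.26) or with the top 15000 peaks (3.55). That of CTCF in emerging against fading regions, which did not pass, was 1.05 with 50 bp windows. CTCF odds ratios were 6.26 to 14.4 (emerging against gained) and 3.51 to 5.22 (fading against lost), in alternatives added after seeing the data. Assignment to protein-coding genes only moved 11 of 34 list counts by more than 1.5 times, among them endothelial and cardiac genes with an emerging region (8 each). No paired analysis was possible because a member has a value only in the libraries that called it, so none has both days in both replicates, and the tests compare lists of regions. A call rests on few reads, from a pileup of 6, so a missing call at this depth does not show closed chromatin.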
